A study of Mus musculus with 4 samples.

Results

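Matrix metalloproteinases cut the proteins of the extracellular matrix, and a small set of inhibitors holds them in check. The genes described here are 5 metalloproteinases, Mmp2, Mmp3, Mmp9, Mmp13 and Mmp14, the 4 tissue inhibitors Timp1, Timp2, Timp3 and Timp4, and the membrane-anchored inhibitor Reck. They were chosen by gene name with earlier results of the same libraries known, so that the p-values below describe these libraries and are not independent evidence. All 10 names had a row in the count table, of 16846 rows in all.

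The RNA came from HT22, an immortalised line derived from mouse hippocampal neurons, in 4 groups with 2 libraries each. HT22 is the cell line and source label of all samples, although the titles number the cells HT23 for the knockdown, HT25 for the overexpression, HT24 for the vector and HT22 for the shRNA control, so a difference in cells between the groups cannot be told apart from the constructs. One group carried a short hairpin RNA against the long noncoding RNA Ntoco (sh-Ntoco, the knockdown) and one was made to overexpress Ntoco (Lv-Ntoco). Their controls carried an empty vector (Vector) and a control hairpin (sh-Ctrl). The series title ties Ntoco to ferroptosis after traumatic brain injury, and the comparisons ask which genes differ when Ntoco is lowered or raised. The labels list 1 sample per group where the table has 2 numbered columns, mark the overexpression Lv where the columns name a plasmid, pcDNA, for its vector, and do not say that the columns came from separate cultures or clones. The abbreviation that the columns use for the target is not explained, so they were matched to groups by role (targeting or control hairpin, vector or overexpression). Library totals were 18452588 to 19859041 counts. The table had 0 rows named Ntoco, so the knockdown and the overexpression were not checked here. Of 6 neuronal marker genes, 4 had a row, and none of these had more than 6 counts in any library, so the neuronal markers of the labelled origin were near 0. Of 6 fibroblast markers, Col1a1, Col1a2 and Pdgfrb had at least 2005 counts in every library, while Col3a1 had 2 to 60, Dcn 0 to 1 and Lum 0.

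Metalloproteinases are made as inactive precursors that are opened by other proteinases, and most are secreted, while Mmp14 stays in the cell membrane. Mmp14 activates the Mmp2 precursor on the cell surface, with Timp2 as the adaptor between them, so that Timp2 both aids this step and inhibits the enzymes. In the brain these enzymes are known for opening the blood-brain barrier after injury, and the inducible members are classic targets of the transcription factors AP-1 and NF-kB. Timp3 is the inhibitor that binds to the matrix itself and also acts on ADAM sheddases.

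The 10 genes ranged from almost no reads to levels above most other genes in the table. To compare genes, levels are given as the deposited FPKM, reads scaled for gene length and library size. Median FPKM over the 8 libraries was 89.5 for Mmp14, 68.6 for Timp2 and 64.1 for Timp1, levels above 95.2%, 93.6% and 93.0% of all rows. Mmp2 had a median of 3.17 FPKM, Reck 0.727 FPKM and Timp3 0.599 FPKM. The other 4 were near or at 0, with medians of 0.0408 FPKM for Mmp9, 0.0183 FPKM for Timp4, and 0 for Mmp3 and Mmp13. Mmp14, Timp1 and Timp2 together made up 94.2% to 99.0% of the summed FPKM of the 10 genes in each library. Neighbours in this order were not all separate, since the ranges over libraries of Mmp14 (59.8 to 134 FPKM), Timp2 (59.2 to 146 FPKM) and Timp1 (39.2 to 105 FPKM) overlapped. The range of Mmp2, 2.07 to 8.08 FPKM, overlapped that of Timp3, 0.0557 to 3.36 FPKM. Within every single library, though, Mmp2 was above Timp3, by 1.67 to 37.1 times.

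Promoter sequence is shown for Mmp3 and Mmp13, inducible proteinases with almost no reads. It is also shown for Timp3, the member with the widest spread between libraries, and for Mmp14, the member with the highest median. RefSeq promoter entries (GRCm38.p6) were found for 8 of the 10 genes, all but Mmp2 and Mmp9. Mmp9, which also had few reads, could therefore not be shown. Each line gives the 120 bases before the annotated start, 5′ to 3′ on the strand of the gene. Capitals mark the AP-1 motif TGANTCA, the TATA motif TATAAA and the GC box GGGCGG, each searched on both strands.

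Mmp3 (chr9:7445702-7445821, plus strand): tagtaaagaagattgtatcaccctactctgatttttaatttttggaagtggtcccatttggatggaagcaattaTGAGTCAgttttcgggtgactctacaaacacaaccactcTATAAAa

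Mmp13 (chr9:7272394-7272513, plus strand): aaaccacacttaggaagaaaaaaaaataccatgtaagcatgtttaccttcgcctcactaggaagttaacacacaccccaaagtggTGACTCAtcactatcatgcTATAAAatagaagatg

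Timp3 (chr10:86300292-86300411, plus strand): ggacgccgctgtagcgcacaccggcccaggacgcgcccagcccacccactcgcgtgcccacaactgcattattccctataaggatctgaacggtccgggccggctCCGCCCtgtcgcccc

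Mmp14 (chr14:54431478-54431597, plus strand): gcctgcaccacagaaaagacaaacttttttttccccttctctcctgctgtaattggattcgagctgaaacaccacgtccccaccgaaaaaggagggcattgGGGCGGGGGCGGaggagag

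Mmp3 and Mmp13 each held 1 AP-1 motif, beginning 46 and 35 bases before the start, and 1 TATA motif. The TATA motifs began 7 and 16 bases before the annotated start, and in neither gene did the motifs overlap. Over 32851 promoter windows of the same length, 3.41% held the AP-1 motif, 6.34% the TATA motif and 26.5% the GC box. Timp3 held 1 GC box and Mmp14 held 2 that adjoin, with no AP-1 or TATA motif in either window. The windows of Timp1 and Timp2 held 1 GC box each and that of Reck held 2, and none of the 3 motifs was found in that of Timp4. CpG dinucleotides numbered 13 in the Timp3 window, 11 each for Timp2 and Reck, 5 for Mmp14, 4 for Timp1, 1 each for Mmp3 and Mmp13 and 0 for Timp4, beside a median of 3 over all windows. A match describes the letters only, and binding was not measured.

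The proteinases Mmp3 and Mmp13, also called stromelysin 1 and collagenase 3, were hardly detected. Mmp3 (Entrez Gene 17392, on GRCm38 chromosome 9, 7445822 to 7455975) had 0 and 2 counts in the knockdown libraries and 0 counts in the other 6 libraries. Mmp13 (Entrez Gene 17386, on chromosome 9, 7272514 to 7283333) had 0 and 4 counts in the knockdown libraries, 0 in all overexpression and vector libraries, and 0 and 1 in the shRNA control libraries. A count of 0 allows up to 3 counts, or 0.151 to 0.163 CPM (counts scaled to a common library size), depending on the library, and covers counting error only. All reads of Mmp3 and 4 of the 5 reads of Mmp13 were in knockdown library 2. At this depth no difference between groups was detectable for either gene.

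Mmp9, the gelatinase best known from brain injury, and Timp4 were also near the floor. Mmp9 (Entrez Gene 17395, on chromosome 2, 164940326 to 164955850) had 1 and 5 counts in the knockdown libraries, 1 and 7 in the overexpression libraries, 8 and 4 in the vector libraries, against 1 and 2 in the shRNA control libraries. Both vector libraries held more Mmp9 reads than both shRNA control libraries, and the other groups overlapped. Timp4 (Entrez Gene 110595, on chromosome 6, 115244444 to 115252205) had 2 and 2 counts in the knockdown libraries, 1 and 1 in the overexpression libraries, 0 and 4 in the vector libraries, against 0 and 1 in the shRNA control libraries. These 4 genes were left out by the filter on low counts, and 6 of the 10 members were tested. Without that filter, 0 members passed an adjusted p of 0.05 in edgeR in any comparison.

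**Figure D1:**
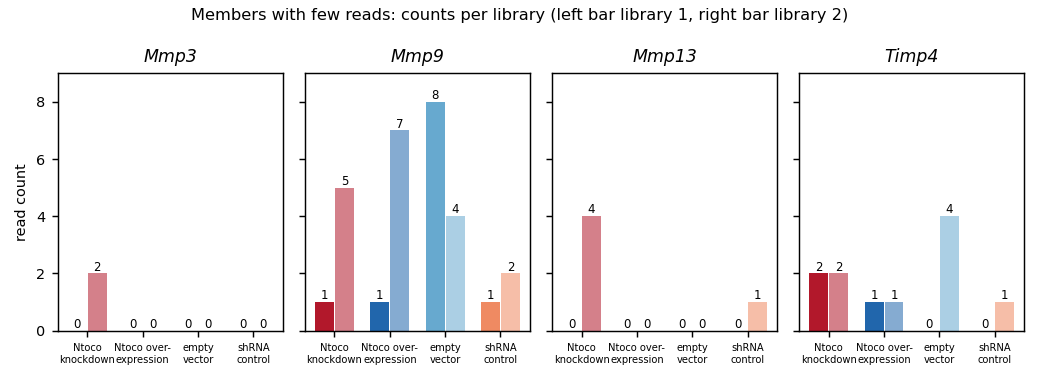
Read counts of Mmp3, Mmp9, Mmp13 and Timp4 in each of the 8 libraries, with the counts written above the bars. Counts ran from 0 to 8, and the 2 reads of Mmp3 and 4 of the 5 reads of Mmp13 were in knockdown library 2.

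For the 6 tested genes, levels per library are given in CPM scaled by TMM factors, and differences as log2 ratios of the edgeR model with their standard errors (SE). Values with ± are means and SDs over the 2 libraries of a group. Mmp2 and Timp3 had both vector libraries above all others, and no group of Mmp14, Timp1, Timp2 or Reck stood above all others in both libraries.

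**Figure D2:**
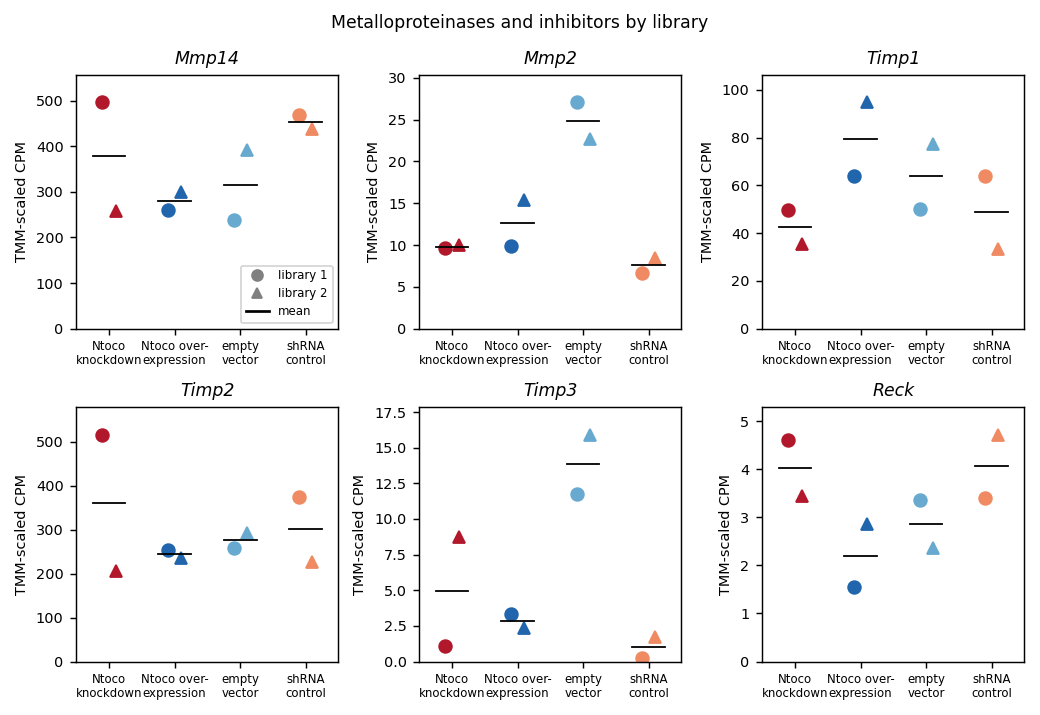
Level of each tested member in TMM-scaled CPM (vertical axis, linear, from 0) by group, with circles for library 1, triangles for library 2 and a line at the mean. Mmp2 and Timp3 were highest in the vector libraries, at 22.6 and 27.1 CPM and at 11.8 and 15.9 CPM, and the knockdown libraries stood far apart for Mmp14, Timp2 and Timp3.

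Mmp2, the gelatinase that Mmp14 activates (Entrez Gene 17390, on chromosome 8, 92827290 to 92853421), was highest in the empty vector cells. It had 9.68 and 9.96 CPM in the knockdown libraries, 9.84 and 15.3 CPM in the overexpression libraries, 27.1 and 22.6 CPM in the vector libraries, against 6.65 and 8.46 CPM in the shRNA control libraries. Both vector libraries were above all 6 others, and both shRNA control libraries were below all 6 others. Group means were 9.82 ± 0.200 CPM in the knockdown, 12.6 ± 3.89 CPM in the overexpression group, 24.9 ± 3.18 CPM in the vector group and 7.56 ± 1.28 CPM in the shRNA control (SD, n = 2).

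Timp3 (Entrez Gene 21859, on chromosome 10, 86300412 to 86349505) had the widest spread of the members. It had 1.10 and 8.73 CPM in the knockdown libraries, 3.35 and 2.37 CPM in the overexpression libraries, 11.8 and 15.9 CPM in the vector libraries, against 0.262 and 1.71 CPM in the shRNA control libraries. As with Mmp2, both vector libraries were above all 6 others. The knockdown libraries were split, with library 1 among the shRNA control values and library 2 above every library but those of the vector group. Group means were 4.91 ± 5.40 CPM in the knockdown, 2.86 ± 0.690 CPM in the overexpression group, 13.8 ± 2.94 CPM in the vector group and 0.988 ± 1.03 CPM in the shRNA control (SD, n = 2). The counts behind these values ranged from 5 in shRNA control library 1 to 309 in vector library 2.

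Mmp14, the membrane-bound proteinase (Entrez Gene 17387, on chromosome 14, 54431598 to 54442456), differed widely between the libraries of the knockdown and of the vector group. It had 497 and 258 CPM in the knockdown libraries, 260 and 299 CPM in the overexpression libraries, 238 and 391 CPM in the vector libraries, against 467 and 438 CPM in the shRNA control libraries. Both shRNA control libraries were above all overexpression and vector libraries. Its adaptor and inhibitor Timp2 (Entrez Gene 21858, on chromosome 11, 118301061 to 118355411) had 517 and 205 CPM in the knockdown libraries, 255 and 236 CPM in the overexpression libraries, 260 and 293 CPM in the vector libraries, against 374 and 227 CPM in the shRNA control libraries. Both genes were highest in knockdown library 1 and low in knockdown library 2.

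Timp1, a secreted inhibitor that many cytokines induce (Entrez Gene 21857, on chromosome X, 20870166 to 20874737), had 49.8 and 35.5 CPM in the knockdown libraries, 64.2 and 95.1 CPM in the overexpression libraries, 50.3 and 77.2 CPM in the vector libraries, against 64.1 and 33.6 CPM in the shRNA control libraries. Reck, which is anchored in the cell membrane and inhibits Mmp2, Mmp9 and Mmp14 (Entrez Gene 53614, on chromosome 4, 43875521 to 43944806), had 4.60 and 3.45 CPM in the knockdown libraries, 1.55 and 2.87 CPM in the overexpression libraries, 3.37 and 2.37 CPM in the vector libraries, against 3.40 and 4.72 CPM in the shRNA control libraries. For both genes the overexpression and vector libraries overlapped, as did the knockdown and shRNA control libraries. Reck was higher in all knockdown and shRNA control libraries than in all overexpression and vector libraries, by little between the nearest of them (3.40 CPM in an shRNA control library and 3.37 CPM in a vector library).

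In the knockdown, Timp3 had the largest difference among the members, and 1 library carried it. Its log2 ratio against the shRNA control was 2.31 (SE 1.02, edgeR unadjusted p 0.0538, adjusted p 0.992). Without knockdown library 2 the ratio was 0.15, without knockdown library 1 it was 3.13, and without shRNA control libraries 1 and 2 in turn it was 1.52 and 4.19. Mmp2 was higher in both knockdown libraries than in both shRNA control libraries by a log2 ratio of 0.38 (SE 0.30, edgeR adjusted p 0.992). The log2 ratios of Mmp14 (-0.26, SE 0.34), Timp1 (-0.20, SE 0.38), Timp2 (0.26, SE 0.41) and Reck (-0.01, SE 0.45) were within their standard errors. Without knockdown library 2, the Mmp14 ratio was 0.14 and the Timp2 ratio 0.78, and without knockdown library 1 they were -0.82 and -0.56. Timp1 and Timp2 also moved with the shRNA control, to 0.34 and 0.67 without its library 1 and to -0.59 and -0.05 without its library 2, and Timp1 had 0.03 without knockdown library 2. Reck turned to 0.24 without shRNA control library 2 and to 0.18 without knockdown library 2.

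With edgeR, no member of the knockdown comparison reached an adjusted p under 0.05, as 0% of all 12115 genes tested did, and none of the 6 was at an unadjusted p under 0.05, against 3.12% of all genes. With DESeq2's Wald test, which called 15 genes or 0.124%, 0 members passed. Of the 6 members, 1 had both knockdown libraries above both shRNA control libraries and 0 had both below, against 15.1% and 14.1% of all genes. The members' median log2 ratio was 0.13, beside 0.01 over all genes.

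In the overexpression comparison, Mmp2 and Timp3 were lower than in the empty vector cells. Mmp2 had a log2 ratio of -0.98 (SE 0.30, edgeR unadjusted p 0.0114, adjusted p 0.598) and Timp3 one of -2.27 (SE 0.97, edgeR unadjusted p 0.0479, adjusted p 0.598). Both overexpression libraries were below both vector libraries for either gene, and the ratio stayed between -1.33 and -0.70 for Mmp2 and between -2.54 and -2.04 for Timp3 when each library was left out in turn. Timp2 was also lower in both overexpression libraries in TMM-scaled CPM, at -0.17 on the log2 scale (SE 0.41). The nearest values, 255 CPM in overexpression library 1 and 260 CPM in vector library 1, were almost equal. In FPKM the order of these libraries was reversed, at 68.8 and 68.4. For Mmp14 (-0.17, SE 0.34), Timp1 (0.32, SE 0.38) and Reck (-0.38, SE 0.46) the libraries of both groups overlapped. Leaving out vector library 2 gave 0.23 for Mmp14, and leaving out vector library 1 gave -0.48. Reck had 0.00 without overexpression library 1 and -0.89 without overexpression library 2. Timp1 had 0.01 and 0.05 without overexpression library 2 and vector library 1 in turn, and 0.66 without vector library 2.

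No member passed the adjusted threshold in this comparison with edgeR, as 0% of all genes did, nor with DESeq2, which called 1 gene, or 0.00876% of those with an adjusted p. At an unadjusted edgeR p under 0.05 there were 2 of the 6 members, against 7.62% of all genes. In TMM-scaled CPM, both overexpression libraries were above both vector libraries in 0 members and below in 3, for Timp2 by little. Of all genes, 24.1% and 23.1% were higher and lower. The members' median log2 ratio was -0.27, beside -0.01 over all genes.

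**Figure D3:**
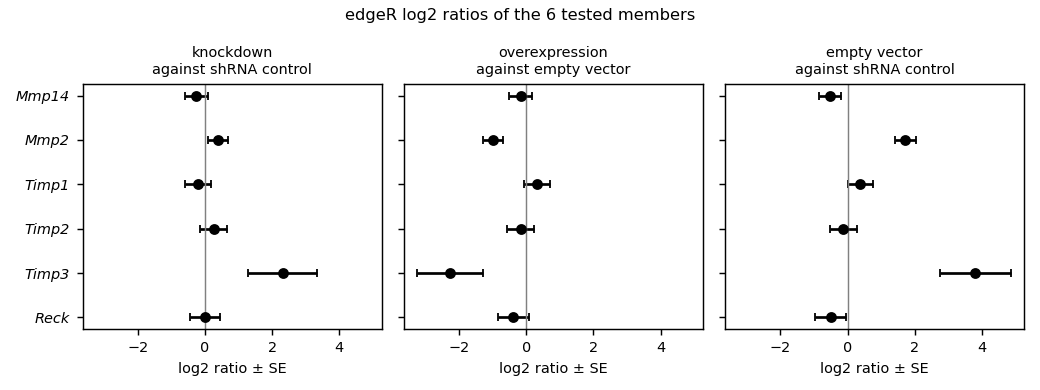
Log2 ratio (horizontal axis, points, with bars of 1 SE on each side) of the 6 tested members in the 3 comparisons, from edgeR. Timp3 had 2.31, -2.27 and 3.80 and Mmp2 had 0.38, -0.98 and 1.72, and the other 4 genes lay between -0.52 and 0.38 in every panel.

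The largest differences of Mmp2 and Timp3 were between the control groups. In the empty vector cells against the shRNA control cells, Mmp2 had a log2 ratio of 1.72 (SE 0.31, a 3.29-fold higher level, edgeR unadjusted p 0.000535, adjusted p 0.337) and Timp3 one of 3.80 (SE 1.06, 13.9-fold, unadjusted p 0.00728, adjusted p 0.337). Mmp2 ranked 8 of 12115 genes by p in this comparison. With DESeq2 both genes passed, with adjusted p 0.000205 for Mmp2 and 0.0034 for Timp3. With edgeR on only the 2 compared groups neither passed, with adjusted p 0.0569 for Mmp2 and 0.0954 for Timp3. Leaving out each library in turn gave log2 ratios of 1.55 to 1.90 for Mmp2 and 3.01 to 5.69 for Timp3. Mmp14 was lower in both vector libraries (-0.52, SE 0.34), where leaving out vector library 2 gave -0.93 and leaving out vector library 1 gave -0.21, and so was Reck (-0.50, SE 0.46). For Reck, leaving out vector library 1 gave -0.78, and leaving out vector library 2 or shRNA control library 2 gave -0.27 and -0.25. Timp1 had 0.38 (SE 0.38) and Timp2 -0.12 (SE 0.41). Without shRNA control libraries 1 and 2 in turn, Timp1 had 0.92 and -0.01, and Timp2 0.28 and -0.44. Timp1 had 0.04 without vector library 2.

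With edgeR, 0 of the 6 members and 0% of all genes passed the adjusted threshold between the controls, and 2 members were at an unadjusted p under 0.05, against 12.5% of all genes. DESeq2 called 2 of the 6 members, against 2.37% of the genes with an adjusted p. Both vector libraries were above both shRNA control libraries in 2 members and below in 2, against 24.6% and 26.5% of all genes. The members' median log2 ratio was 0.13, beside -0.00 over all genes. The vector and hairpin cells differ in what they carry and possibly in how it was delivered, and these cannot be told apart. This comparison shares the vector libraries with the overexpression comparison and the shRNA control libraries with the knockdown comparison.

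**Figure D4:**
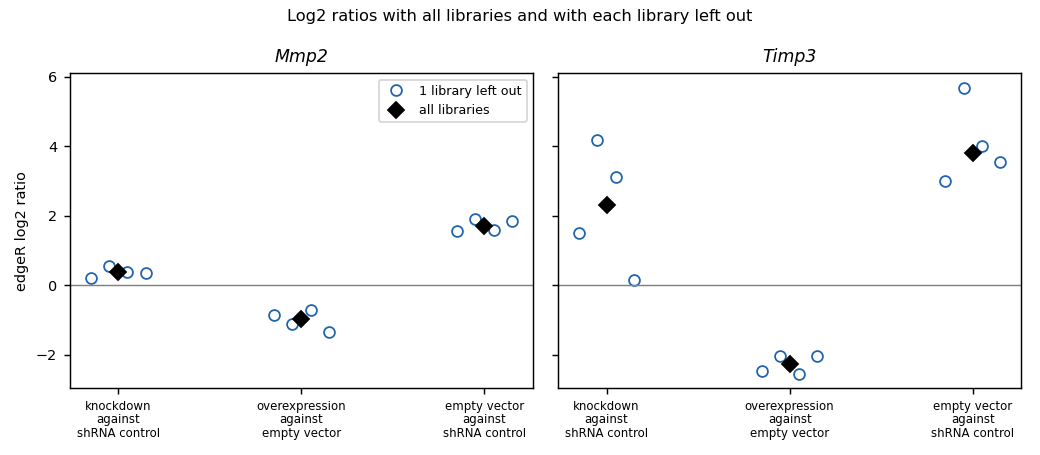
Log2 ratio from edgeR (vertical axis) of Mmp2 and Timp3 in the 3 comparisons with all libraries (diamonds) and with 1 library of the compared groups left out (open circles). Without knockdown library 2, the knockdown ratio of Timp3 was 0.15, against 2.31 with all libraries.

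Whether the overexpression effect differed from the knockdown effect was tested by a contrast of its own. It was -1.36 (SE 0.42, edgeR unadjusted p 0.0128, adjusted p 0.65) for Mmp2 and -4.58 (SE 1.41, unadjusted p 0.0119, adjusted p 0.65) for Timp3. Without knockdown library 2 the Timp3 value was -2.42, and without shRNA control library 2 it was -6.47. For Mmp2 it ranged from -1.71 to -1.07 over the left-out libraries. For Mmp14, Timp1, Timp2 and Reck it was 0.09, 0.52, -0.43 and -0.37, each below its SE. None of the 6 members passed, as 0% of all genes, and 2 were at an unadjusted p under 0.05, against 6.92% of all genes. The contrast contains the vector libraries, which were above all others for Mmp2 and Timp3. It is therefore not independent of the overexpression comparison.

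The balance of the members was described as ratios of FPKM within a library. Mmp14 was 43.3 and 21.8 times as high as Mmp2 in the knockdown libraries, 22.3 and 16.4 times in the overexpression libraries, 7.41 and 14.6 times in the vector libraries, against 59.2 and 43.6 times in the shRNA control libraries. The ratio was thus higher in both overexpression libraries than in both vector libraries. It was lower in both knockdown libraries than in both shRNA control libraries, but the nearest of these, at 43.3 and 43.6, were almost equal. Mmp14 over Timp2, enzyme over adaptor, was 0.917 and 1.20 in the knockdown libraries, 0.973 and 1.21 in the overexpression libraries, 0.875 and 1.27 in the vector libraries, against 1.19 and 1.83 in the shRNA control libraries, which overlapped in the knockdown and overexpression comparisons. Timp2 over Timp1, between the abundant inhibitors, was 2.54 and 1.41 in the knockdown libraries, 0.972 and 0.607 in the overexpression libraries, 1.26 and 0.927 in the vector libraries, against 1.43 and 1.66 in the shRNA control libraries. All 4 knockdown and shRNA control libraries were above all 4 overexpression and vector libraries, while the groups overlapped within the knockdown and the overexpression comparison. These ratios have no test.

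The patterns of the members over the 8 libraries were compared by the root mean square difference of log2 CPM after centring each gene on its mean, which is 0 for identical patterns. A gene that did not vary at all would lie at the member's own spread, 0.40 for Mmp14, 0.41 for Timp2, 0.66 for Mmp2 and 1.72 for Timp3. Among the members, Mmp14 and Timp2 were closest to each other, at 0.32, not far below those spreads. Timp2 ranked only 930 among the genes nearest to Mmp14 and Mmp14 ranked 342 among those nearest to Timp2. Nearest to Mmp14 were Rere, Ecm1 and Rnpepl1 (0.11 to 0.12), and nearest to Timp2 were Socs5, Zfp36l2 and Rara (0.17 to 0.18). Nearest to Mmp2 was Trim56, an antiviral ubiquitin ligase, at 0.17, followed by Ascc3 at 0.24 and Cubn at 0.26. Nearest to Timp3 were Tecta at 0.70, the interleukin 1 receptor antagonist Il1rn at 0.71 and Thsd7a at 0.73, and of the members Mmp2 at 1.26. Seen from Mmp2, however, Timp3 was the farthest of the tested members. Timp1 lay nearest to Mlkl (0.14), Adsl (0.18) and N4bp3 (0.22), and Reck to Tmem104 (0.13), Hoxa5 (0.14) and Dvl3 (0.15). All these genes share the same 8 libraries and scaling, and the likeness has no test.

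**Figure D5:**
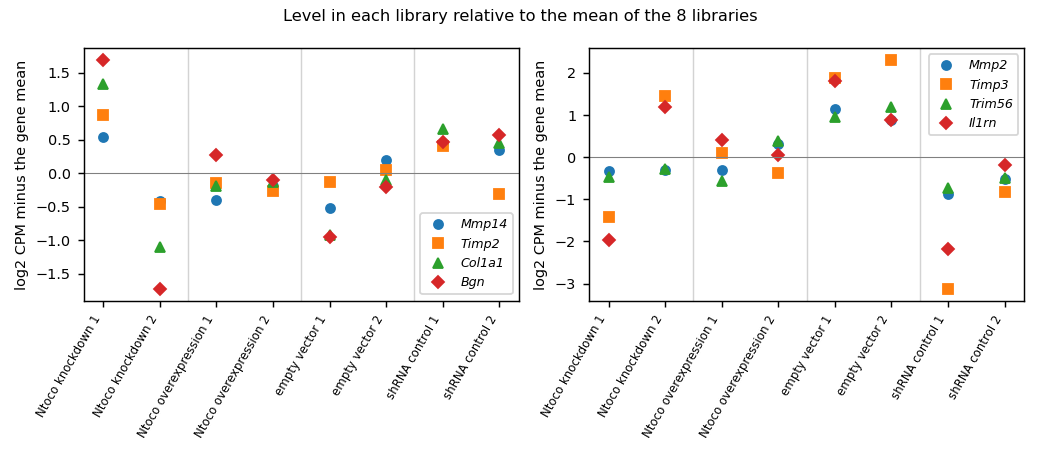
Log2 CPM minus the mean of the gene over the 8 libraries (vertical axis) for Mmp14 and Timp2 beside the matrix genes Col1a1 and Bgn (left), and for Mmp2 and Timp3 beside Trim56 and Il1rn (right). In the left panel all 4 genes were highest in knockdown library 1, and Mmp14 and Col1a1 were low in knockdown library 2 and vector library 1.

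Summed markers of fibroblasts, astrocytes and microglia were, like Mmp14, highest in knockdown library 1 and lowest in vector library 1. Single markers did not all follow these sums. Over the 6 listed fibroblast markers, all with a row, the summed level was 4971 and 1541 CPM in the knockdown libraries, 2455 and 2216 CPM in the overexpression libraries, 1387 and 2538 CPM in the vector libraries, against 3584 and 3560 CPM in the shRNA control libraries. Col1a1 and Col1a2 made up most of this sum, and Pdgfrb was highest in shRNA control library 2. The 4 astrocyte markers with a row summed to 52.6 and 14 CPM in the knockdown libraries, 39.5 and 31.8 CPM in the overexpression libraries, 8.34 and 30.6 CPM in the vector libraries, against 45.4 and 42.7 CPM in the shRNA control libraries. Aldh1l1 and S100b made up most of this sum, and Aldh1l1 had the same highest and lowest library as the sum. S100b was highest in shRNA control library 1, Gfap in knockdown library 2 and Slc1a2 in shRNA control library 2. The 6 microglial markers, of which Ptprc and C1qa had 0 counts in every library, summed to 7.74 and 2.32 CPM in the knockdown libraries, 7.21 and 5.52 CPM in the overexpression libraries, 1.98 and 4.28 CPM in the vector libraries, against 7.54 and 6.90 CPM in the shRNA control libraries. Of these, Tmem119 was highest in knockdown library 1, Csf1r in shRNA control library 1 and Cx3cr1 in shRNA control library 2. Aif1 had no more than 2 counts in any library. The 4 oligodendrocyte lineage markers with a row summed to 98.2 and 52.0 CPM in the knockdown libraries. Their sum was 54.6 and 63.2 CPM in the overexpression and 63.2 and 41.1 CPM in the vector libraries. The shRNA control libraries had 63.5 and 68 CPM. This sum was highest in knockdown library 1 but lowest in vector library 2, and Pdgfra made up most of it. All samples were labelled as the line HT22, so these sums describe gene levels and do not show that such cell types were present. In bulk RNA, fewer cells of a type and less RNA per cell cannot be told apart. The part of these markers in the Mmp14 values was not tested. Markers of endothelium and pericytes summed to 0.419 and 2.37 CPM in the knockdown libraries, 0.567 and 1.49 CPM in the overexpression libraries, 1.61 and 1.80 CPM in the vector libraries, against 0.943 and 1.09 CPM in the shRNA control libraries. These sums, like Timp3, were highest in knockdown library 2 and the vector libraries, but no marker of this list had more than 36 counts, 1.78 of the 2.37 CPM in knockdown library 2 were Tek, and Pecam1 was at 0 there. The part of these markers in the Timp3 values was not tested.

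Of the 18 other metalloproteinases listed, 9 had a row and 4 were tested. Mmp11, or stromelysin 3, had the highest median at 18.5 FPKM, followed by Mmp19 at 6.66, Mmp23 at 5.32 and Mmp28 at 1.13 FPKM. Mmp15, Mmp17, Mmp21, Mmp24 and Mmp25 had no more than 11 counts in any library. None of the 4 tested genes passed or was at an unadjusted edgeR p under 0.05 in any comparison, and their median log2 ratio was 0.12 in the knockdown, 0.08 in the overexpression and -0.54 in the vector comparison.

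The related ADAM and ADAMTS families had a few genes at an unadjusted p under 0.05 and none past the adjusted threshold. Of 8 tested ADAM genes, 0 were higher and 1 lower at that level in the knockdown, 0 and 1 in the overexpression and 0 and 2 in the vector comparison, where 3.12%, 7.62% and 12.5% of all genes were at that level in either direction. Adam33 was lower in the knockdown (log2 ratio -1.76, SE 0.41, edgeR adjusted p 0.992) and in the vector cells (-2.10, SE 0.42, adjusted p 0.337). It had 1.88 and 2.17 CPM in the knockdown libraries, 0.824 and 1.27 CPM in the overexpression libraries, 1.39 and 1.80 CPM in the vector libraries, against 7.49 and 6.23 CPM in the shRNA control libraries, which were above all 6 others. Adam22, which lacks proteinase activity, was lower in the overexpression comparison (-0.85, SE 0.29), and Adam10, a main sheddase of membrane proteins, in the vector comparison (-0.47, SE 0.20). Of 9 tested ADAMTS genes, Adamts14 was higher in the knockdown (1.07, SE 0.37) and Adamts10 lower in the vector cells (-1.53, SE 0.42). The median log2 ratios in the knockdown, overexpression and vector comparisons were -0.13, -0.27 and -0.02 for the ADAM list and -0.05, -0.12 and 0.01 for the ADAMTS list.

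The plasminogen activators, which start the proteinase cascade that opens metalloproteinase precursors, also had no gene past the threshold. Of 7 tested genes, only Plaur, the urokinase receptor, was at an unadjusted p under 0.05 between the controls (log2 ratio 1.0, SE 0.43, edgeR adjusted p 0.392). In that comparison 12.5% of all genes were at that level. The median log2 ratios of this list were -0.15, 0.27 and 0.09 in the knockdown, overexpression and vector comparisons. Of 11 tested activators, receptors and binding partners, Furin, the convertase that opens the Mmp14 precursor, was lower in the overexpression cells, with 77.2 and 97.8 CPM in the overexpression libraries and 132 and 124 CPM in the vector libraries. Its log2 ratio was -0.55 (SE 0.21), with an edgeR adjusted p of 0.598. Furin was the only gene of that list at an unadjusted edgeR p under 0.05 in this comparison, against 7.62% of all genes. The medians of that list were -0.06, -0.12 and -0.08 in the knockdown, overexpression and vector comparisons.

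Among the 16 tested matrix substrates, the median log2 ratio was 0.01 in the knockdown, -0.41 in the overexpression and -0.60 in the vector comparison, beside 0.01, -0.01 and -0.00 over all genes. In the knockdown 0 substrates were higher and 4 lower in both libraries, against 15.1% and 14.1% of all genes. In the overexpression comparison 3 were higher and 6 lower, against 24.1% and 23.1%, and in the vector comparison 2 were higher and 12 lower, against 24.6% and 26.5%. None passed the adjusted threshold in edgeR, and 5 of the 16 were lower at an unadjusted p under 0.05 in the overexpression comparison, against 7.62% of all genes in either direction, and 0 in the other comparisons. The laminin genes Lama5 (log2 ratio -1.08, SE 0.29) and Lamb1 (-0.85, SE 0.30) had the smallest p of these, with an edgeR adjusted p of 0.598 each. Lama5 had 34.9 and 44.2 CPM in the overexpression libraries and 64.6 and 102 CPM in the vector libraries, and Lamb1 308 and 543 CPM in the overexpression libraries and 752 and 779 CPM in the vector libraries.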

How the data were processed

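RNA of cells labelled HT22 (numbered HT22 to HT25 in the titles) was sequenced in 4 groups. Extraction was with TRIzol and the kit kept the strand of polyadenylated RNA, per the labels' protocols. The authors deposited raw whole-number counts per gene, and FPKM values scaled for gene length and library size. Trimmomatic, HISAT2, Cufflinks, HTSeq, DESeq and mm10 appear in the submitters' processing notes. Versions, annotation and strand setting were not given in the sources used here, so reads of overlapping genes on opposite strands may be mixed.

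Column roles gave the groups, and 0 columns of sample values were left out. The 2 libraries of a group differed beyond counting noise (chi-square per gene 62.1 to 156, over genes with at least 100 counts) and were used as separate libraries. All p-values measure only how far these libraries spread, which may be technical. Genes were filtered with filterByExpr (minimum count 10), leaving 12115 of 16846, and scaled by TMM. All genes were tested in 1 model of the 4 groups with edgeR's quasi-likelihood F-test (4 residual degrees of freedom), adjusted by Benjamini and Hochberg over all genes tested, with a threshold of 0.05. Likeness used log2 CPM with a prior count of 2. The code was tested on simulated data. Software was edgeR 4.0.16 and DESeq2 1.42.0 in R 4.3.3, with matplotlib 3.10.9, pandas 2.3.3 and numpy 2.4.6. The alternatives were other scalings and filters, DESeq2, fits of 2 groups, a replicate block and leaving out each library.

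The members and lists were chosen with earlier results of these data known. All 10 members were named, and from the lists up to 2 higher and 2 lower genes per comparison with the smallest p among those at an unadjusted p under 0.05. Col1a1 and Bgn in the plot of patterns, and the markers singled out, were chosen after their values were seen. Gene coordinates and promoters are from RefSeq (GRCm38.p6), 1-based.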

Additional observations from a re-analysis of the deposited data

How the results depend on the processing

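Over the settings other than leaving out a library, 134 of 138 log2 ratios of members kept their direction and their side of the threshold. In the knockdown, Reck had a log2 ratio of 0.02 with upper quartile factors and 0.00 with the replicate block, against -0.01. DESeq2 put Mmp2 (1.73) and Timp3 (3.83) past the threshold in the vector comparison, so its count of members called was 2, against 0. The cause of these changes was not tested.

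Leaving out 1 library turned the direction of 17 of 120 ratios. The ranges were, in the knockdown, -0.82 to 0.14 for Mmp14, -0.59 to 0.34 for Timp1, -0.56 to 0.78 for Timp2 and -0.24 to 0.24 for Reck. In the overexpression comparison they were -0.48 to 0.23 for Mmp14 and -0.89 to 0.00 for Reck, and in the vector comparison -0.01 to 0.92 for Timp1 and -0.44 to 0.28 for Timp2. For the difference of effects they were -0.31 to 0.64 for Mmp14, -0.02 to 0.91 for Timp1, -0.95 to 0.39 for Timp2 and -0.87 to 0.02 for Reck.

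Counts of all genes called were 0 in each comparison with all libraries. With DESeq2 they were 15 in the knockdown, 1 in the overexpression and 281 in the vector comparison. With only the 2 compared groups they were 1 in the overexpression and 128 in the vector comparison, and with every gene of at least 1 count 3 in the vector comparison. Leaving out a library gave 0 to 1 in the knockdown and 0 to 25 in the overexpression comparison, with the 1 found without knockdown library 1 and the 25 without overexpression library 2. Same-numbered libraries deviated together for the knockdown and the shRNA control (correlation of deviations 0.36) but not for the overexpression and the vector (-0.22), nor over all pairs of groups (-0.36 to 0.36), so the numbers were not taken to pair the samples. The replicate block called 0 members and 0 genes in each comparison, as without it. The 4 members with at most 8 counts in any library entered only the fit of every gene, which called 0 members, and depth limits what can be seen of them.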
